A study of Bos taurus with 9 samples.

Results

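Elastic fibre and microfibril genes were examined in bovine chondrocytes and marrow-derived mesenchymal stem cells (MSCs) through 8 genes, namely FBN1, MFAP2, MFAP5, LTBP2, ELN, FBLN1, FBLN5 and LOX. The members were all probe sets whose single gene symbol in the platform annotation was one of these, which gave 11 of the 24016 probe sets tested. ELN, FBLN1 and LTBP2 each had a pair of probe sets and the other genes 1 each. In the pairs, set 1 is the set with the higher mean over all arrays and set 2 the other. The 9 arrays fall into 3 groups of 3, each with 1 array from each of donors 1, 2 and 3, calves aged 3 to 6 months. The first group is chondrocytes isolated from articular cartilage and kept in agarose, a hydrogel that holds cells rounded and apart, for 28 days in a chemically defined medium that held the growth factor TGF-beta3 at 10 ng/mL. The second is MSCs from bone marrow kept in the same way for 28 days, which the labels call chondrogenic. The third is MSCs harvested right after they were put into agarose, at day 0, which the labels call undifferentiated. No group of chondrocytes at day 0 and no group cultured without TGF-beta3 was analysed here, so that time in agarose and TGF-beta3 cannot be told apart.

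Elastic fibres consist of an elastin core, made from the soluble precursor tropoelastin, within a mantle of microfibrils. Fibrillin forms the backbone of microfibrils, small glycoproteins such as the MFAP proteins and latent TGF-beta binding proteins attach to it, fibulins link tropoelastin to the microfibrils and to cells, and lysyl oxidase cross-links the elastin. Microfibrils also hold latent TGF-beta in the matrix. Elastic cartilage of the ear is rich in elastin, whereas articular cartilage has a sparse network of elastic fibres and microfibrils.

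Levels below are RMA log2 intensities as deposited, and differences are on the same log2 scale, with the standard error of the limma model (n = 3 arrays per group throughout). A difference was called at a Benjamini-Hochberg adjusted p under 0.05 over all 24016 probe sets. Intensities of different probe sets are not comparable with each other, so that levels are set side by side only within a probe set. In RNA of whole cultures, fewer cells of a type and less RNA per cell cannot be told apart. The mean of 8 chondrocyte markers ran from 11.3 to 11.5 in chondrocytes and from 10.7 to 11.2 in day 28 MSCs, against 4.92 to 5.34 in day 0 MSCs. Hybridisation controls were low on 2 arrays, those of donor 3 in chondrocytes and in day 28 MSCs. The 3′ minus 5′ signal of 5 control transcripts averaged 1.75 ± 0.14 in chondrocytes and 1.81 ± 0.18 in day 28 MSCs, against 1.36 ± 0.18 in day 0 MSCs (SD, n = 3 each). In a 2-sided exact permutation test each day 28 group gave p = 0.1 against day 0 MSCs, which is the smallest value for 3 against 3 arrays and 0.3 after adjustment over 6 tests.

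In MSCs the core and its cross-linking enzyme moved up over 28 days, and FBLN1, FBLN5 and FBN1 moved down. ELN rose 5.85-fold by its set 1 and LOX 2.34-fold, while FBLN1 fell to 0.155 and 0.0928 of its day 0 level by its sets 1 and 2, FBLN5 to 0.240 and FBN1 to 0.459. In all, 7 of 11 member probe sets were called, 3 higher and 4 lower, against 30.2% of all probe sets called in this comparison, 14.6% higher and 15.6% lower. MFAP2, MFAP5 and both sets of LTBP2 did not pass. The median absolute difference was 1.23 for the members and 0.35 for all probe sets, those of low signal included.

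Among the members, chondrocytes differed from day 28 MSCs in FBLN5 and FBLN1, both of which were higher, FBLN5 8.51-fold and FBLN1 3.78-fold by its set 1. These were 3 of 11 member probe sets, all higher, against 10.3% of all probe sets called, 6.27% higher and 4.06% lower. None of the 11 was called lower, which says little about the members beside 4.06% of all probe sets called lower. ELN, LOX, FBN1, MFAP2, MFAP5 and LTBP2 did not pass in this comparison. Against day 0 MSCs, 5 of 11 member probe sets were called in chondrocytes, against 31.0% of all probe sets, 15.1% higher and 15.9% lower: both ELN sets and LOX were higher and both FBLN1 sets lower. The comparisons share arrays, so that their calls are not independent of each other. The share of members called, from 27.3% to 63.6%, is given beside the background without a test, as 11 probe sets of 8 genes chosen with earlier results known are not a sample. The background also holds many probe sets of low signal, whereas of the members MFAP5 alone lay under the median signal. Of the 12008 probe sets kept by a filter at that median, 5533 were called between day 28 and day 0 MSCs. Between chondrocytes and day 28 MSCs 2091 of them were called, and between chondrocytes and day 0 MSCs 5649.

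**Figure D1:**
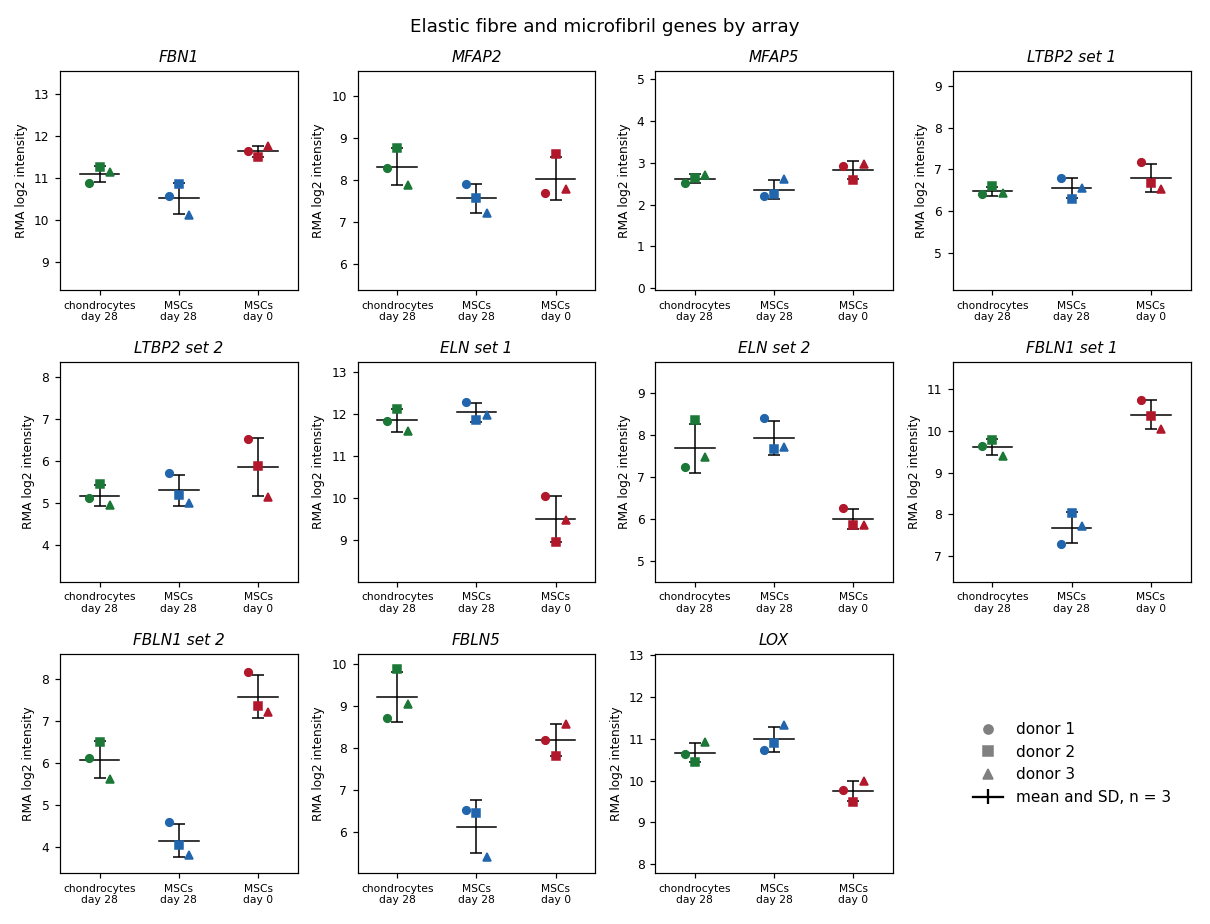
RMA log2 intensity of the 11 probe sets on each array; every panel spans the same number of log2 units, points are arrays with a marker shape per donor, and lines with bars give mean and SD of 3 arrays. Both ELN sets and LOX lie higher in chondrocytes and day 28 MSCs than in day 0 MSCs, and FBLN1 and FBLN5 lie lowest in day 28 MSCs.

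ELN encodes tropoelastin, the monomer of the elastic core. Its set 1 read 11.84, 12.12 and 11.59 in chondrocytes of donors 1, 2 and 3, and 12.29, 11.86 and 11.98 in day 28 MSCs, against 10.05, 8.95 and 9.48 in day 0 MSCs. Every day 28 array was above every day 0 array, and the day 28 groups overlapped. Set 2 read 7.25, 8.36 and 7.48 in chondrocytes and 8.41, 7.67 and 7.73 in day 28 MSCs, against 6.27, 5.87 and 5.85 in day 0 MSCs, with the same separation. In MSCs the difference between day 28 and day 0 was 2.55 ± 0.27 by set 1 (adjusted p = 0.000161) and 1.94 ± 0.31 by set 2 (adjusted p = 0.00140), and it was positive in all 3 donors, from 2.24 to 2.91 by set 1. Set 2 thus gave a smaller rise than set 1, by 0.61, a gap that was not tested. Chondrocytes minus day 0 MSCs gave 2.36 ± 0.27 by set 1 (adjusted p = 0.000244) and 1.70 ± 0.31 by set 2 (adjusted p = 0.00289). Between chondrocytes and day 28 MSCs ELN did not pass, at -0.19 by set 1, with a 95% confidence interval from -0.80 to 0.42, and at -0.24 by set 2, from -0.93 to 0.45. Donor 2 had more ELN in chondrocytes than in day 28 MSCs by both sets, whereas donors 1 and 3 had less.

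LOX encodes lysyl oxidase, the copper enzyme that oxidises lysines of tropoelastin and collagen so that they cross-link. It read 10.62, 10.45 and 10.91 in chondrocytes and 10.72, 10.91 and 11.32 in day 28 MSCs, against 9.78, 9.50 and 9.98 in day 0 MSCs. Day 0 arrays were below all others without overlap. The difference was 1.23 ± 0.20 between day 28 and day 0 MSCs (adjusted p = 0.00186) and 0.91 ± 0.20 between chondrocytes and day 0 MSCs (1.88-fold, adjusted p = 0.00889). Chondrocytes were at -0.32 relative to day 28 MSCs, with a 95% interval from -0.78 to 0.14, negative in all 3 donors, which did not pass (adjusted p = 0.404). LOX was close to even across donors, with differences from day 0 of 0.93, 1.41 and 1.34 in day 28 MSCs and of 0.84, 0.95 and 0.93 in chondrocytes.

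FBLN1 encodes fibulin-1, a calcium-binding glycoprotein of elastic fibres and basement membranes. Set 1 read 9.64, 9.77 and 9.39 in chondrocytes and 7.30, 8.03 and 7.73 in day 28 MSCs, against 10.73, 10.36 and 10.04 in day 0 MSCs. Set 2 read 6.12, 6.50 and 5.62 in chondrocytes and 4.59, 4.05 and 3.82 in day 28 MSCs, against 8.16, 7.35 and 7.23 in day 0 MSCs. In both sets the 3 groups did not overlap, with day 0 MSCs highest, chondrocytes between and day 28 MSCs lowest. The difference between day 28 and day 0 MSCs was -2.69 ± 0.23 by set 1 (adjusted p = 6.08e-05) and -3.43 ± 0.32 by set 2 (adjusted p = 8.44e-05). Chondrocytes minus day 28 MSCs gave 1.92 ± 0.23 by set 1 (adjusted p = 0.00115) and 1.93 ± 0.32 by set 2 (adjusted p = 0.00533). Chondrocytes minus day 0 MSCs gave -1.50 ± 0.32 by set 2 (adjusted p = 0.00644) and -0.78 ± 0.23 by set 1 (adjusted p = 0.0323). The call by set 1 in that last comparison ended, at -0.60 to -0.80, when chondrocyte replicate 1 or 3 or day 0 MSC replicate 1 or 2 was left out, and it also ended with arrays centred on ribosomal protein genes (-0.64, adjusted p = 0.0614) and without both arrays with low hybridisation controls (-0.67, adjusted p = 0.118).

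FBLN5 encodes fibulin-5, which binds tropoelastin and integrins and is needed for elastic fibre assembly in mice. It read 8.71, 9.87 and 9.04 in chondrocytes and 6.52, 6.44 and 5.39 in day 28 MSCs, against 8.18, 7.80 and 8.56 in day 0 MSCs. Day 28 MSCs were below all other arrays, and donor 3 was the lowest of them. The difference between day 28 and day 0 MSCs was -2.06 ± 0.38 (adjusted p = 0.00306), with -1.66, -1.36 and -3.17 in donors 1, 2 and 3. Chondrocytes minus day 28 MSCs gave 3.09 ± 0.38 (adjusted p = 0.00119), the largest difference of any member in that comparison and above 99.3% of all probe sets. Without the 2 arrays with low hybridisation controls, both from donor 3, the first difference was -1.70 and both calls held. Against day 0 MSCs, chondrocytes were at 1.03 ± 0.38, with no overlap between groups, and did not pass (adjusted p = 0.0682). That value was positive in all donors, at 0.53, 2.07 and 0.48, so that donor 2 stood apart, and it passed in 6 of 22 alternatives, among them without day 28 MSC replicate 3 (adjusted p = 0.0318).

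FBN1 encodes fibrillin-1, the backbone of microfibrils. It read 10.88, 11.26 and 11.16 in chondrocytes and 10.57, 10.85 and 10.14 in day 28 MSCs, against 11.65, 11.52 and 11.77 in day 0 MSCs. The 3 groups did not overlap, though the highest day 28 MSC array lay just under the lowest chondrocyte array. FBN1 fell by 1.12 in day 28 relative to day 0 MSCs (SE 0.20, adjusted p = 0.00237), with -1.07, -0.66 and -1.63 in donors 1, 2 and 3. Chondrocytes were at 0.58 ± 0.20 relative to day 28 MSCs (adjusted p = 0.102) and at -0.55 ± 0.20 relative to day 0 MSCs (adjusted p = 0.0637), and neither passed. The value against day 0 MSCs passed under some alternatives, such as array medians (-0.66, adjusted p = 0.0286), and when day 28 MSC replicate 2 or 3 was left out of the shared variance (adjusted p = 0.0417 and 0.0287).

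For the other microfibril proteins the groups overlapped and no difference passed. MFAP2, a small microfibril glycoprotein that binds fibrillin and tropoelastin, read 8.28, 8.76 and 7.89 in chondrocytes and 7.91, 7.58 and 7.21 in day 28 MSCs, against 7.69, 8.62 and 7.79 in day 0 MSCs. Donor 2 was the highest array in chondrocytes and in day 0 MSCs. It was at -0.47 (95% interval -1.16 to 0.23) in day 28 relative to day 0 MSCs and at 0.75 (0.05 to 1.44, adjusted p = 0.175) in chondrocytes relative to day 28 MSCs, and neither passed. The first value was -0.17 without day 0 MSC replicate 2 and -0.29 without day 28 MSC replicate 3. Its relative MFAP5 had low signal, between the 18.5th and the 31.3rd percentile of all probe sets on each array. MFAP5 read 2.51, 2.63 and 2.72 in chondrocytes and 2.19, 2.25 and 2.62 in day 28 MSCs, against 2.93, 2.58 and 2.96 in day 0 MSCs, with overlap. It was at -0.47 ± 0.16 in day 28 relative to day 0 MSCs (adjusted p = 0.0596), and passed with the donor as a block (adjusted p = 0.0439) and without day 28 MSC replicate 3 (-0.60, adjusted p = 0.0280) or day 0 MSC replicate 2 (-0.59, adjusted p = 0.0367).

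LTBP2 belongs to the latent TGF-beta binding proteins and attaches to fibrillin microfibrils, but unlike its relatives does not bind latent TGF-beta. Set 1 read 6.41, 6.61 and 6.44 in chondrocytes and 6.79, 6.30 and 6.56 in day 28 MSCs, against 7.17, 6.68 and 6.54 in day 0 MSCs. Set 2 read 5.13, 5.45 and 4.95 in chondrocytes and 5.72, 5.20 and 4.99 in day 28 MSCs, against 6.54, 5.89 and 5.15 in day 0 MSCs. All groups overlapped, and no LTBP2 comparison passed. Day 28 minus day 0 MSCs gave -0.25 (95% interval -0.69 to 0.20) by set 1 and -0.56 (-1.31 to 0.20) by set 2. Set 2 passed without day 0 MSC replicate 3, at -0.91 in day 28 MSCs (adjusted p = 0.0483) and at -1.04 in chondrocytes (adjusted p = 0.0292), both relative to day 0 MSCs. Without day 0 MSC replicate 1 the same values were -0.22 (adjusted p = 0.661) and -0.34 (adjusted p = 0.457), and set 1 was at -0.06 in day 28 MSCs and -0.12 in chondrocytes. Chondrocytes minus day 28 MSCs gave -0.07 and -0.13 by sets 1 and 2, values whose sign depended on the scaling.

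**Figure D2:**
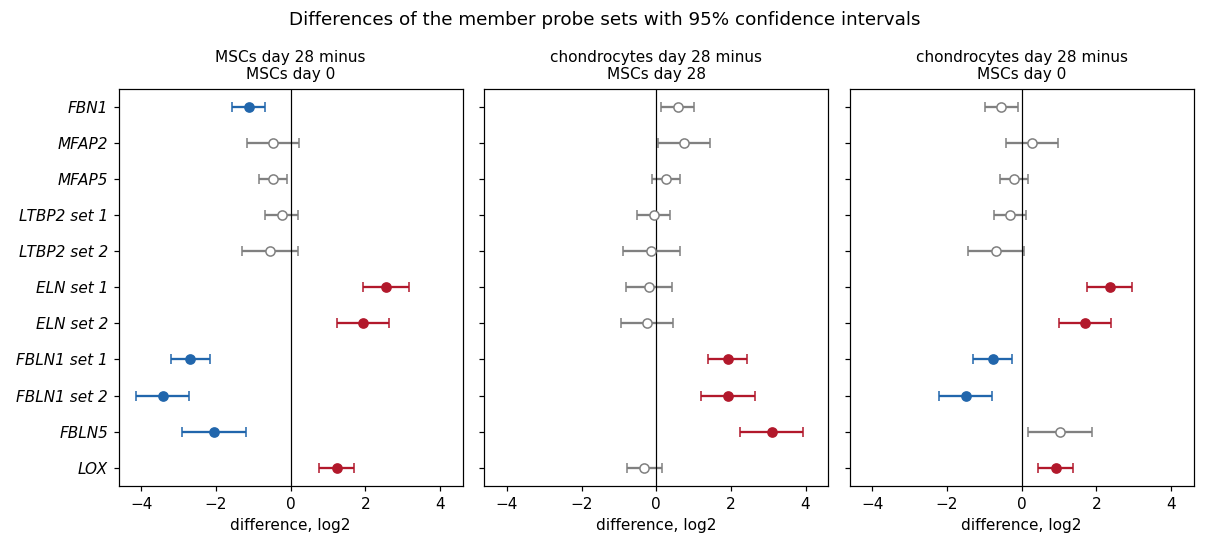
Differences of the 11 probe sets in 3 comparisons, log2, with 95% confidence intervals from limma; filled red points were called higher and filled blue points called lower in the group named first, and open grey points were not called. Both FBLN1 sets and FBLN5 are lower in day 28 than in day 0 MSCs and higher in chondrocytes than in day 28 MSCs, while ELN and LOX are higher in both day 28 groups than in day 0 MSCs.

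The members therefore fell into patterns by group level, which are descriptions and were not tested as such. ELN and LOX had their lowest arrays in day 0 MSCs and did not differ beyond their spread between the day 28 groups. FBLN1, FBLN5 and FBN1 had their lowest arrays in day 28 MSCs, with chondrocytes below day 0 MSCs for FBLN1 and FBN1 and above them for FBLN5, of which FBLN1 was called. MFAP2, MFAP5 and LTBP2 had overlapping groups. Lack of overlap was common on these arrays. Between day 28 and day 0 MSCs 7 of 11 member probe sets did not overlap, against 42.2% of all probe sets. Between chondrocytes and day 28 MSCs 4 of 11 did not, against 26.8%, and between chondrocytes and day 0 MSCs 7 of 11, against 46.7%. Group membership took up from 83.6% to 95.1% of the variance of the sets of ELN, LOX, FBLN1, FBLN5 and FBN1, and from 30.9% to 60.9% of that of MFAP2, MFAP5 and LTBP2, against a median of 55.5% over all probe sets. The spread within groups was widest for FBLN5 (pooled SD 0.55) and narrowest for MFAP5 (0.19), whose signal was low.

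The genes most like each member were sought among 5159 or 5160 named genes with a range of at least 1 on the log2 scale, by Pearson r over the 9 arrays. As the arrays form 3 groups and share donors, r holds both the group levels and the spread within groups, and it is given as a description. With group means removed, r of the pairs named below ran from 0.545 (FBLN1 with PALLD) to 0.978 (LOX with TRRAP). It was 0.949 for MFAP2 with NUP85. The genes were picked for their high r over the same 9 arrays, so that both kinds of r are high partly by that choice. ELN was most like the glutamine transporter SLC38A3 (r = 0.988), SRGAP2 (0.985) and LRRC1 (0.984). LOX was closest to TRRAP (0.990), ZMYM6 (0.988) and PAXBP1 (0.988). FBLN1 was closest to the chloride channel protein CLIC1 (0.994), NNAT (0.989) and the actin-associated gene PALLD (0.977). FBLN5 was closest to the tubulin gene TUBG1 (0.975), the calpain CAPN2 (0.958) and MMP23 (0.957). FBN1 was closest to the actin capping gene CAPZB (0.978), GNB1 (0.971) and the matricellular gene THBS2 (0.969), which was at -3.80 in day 28 relative to day 0 MSCs. The members with overlapping groups had lower values, with NUP85 (0.948), PSMB10 (0.897) and ENG (0.894) for MFAP2, CNTLN (0.953), MYOF (0.940) and NUP188 (0.939) for MFAP5, and ANKRD1 (0.924), C1H21orf62 (0.901) and HOXC13 (0.896) for LTBP2.

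Of 73 further gene symbols listed for elastic fibres and microfibrils, their enzymes, proteases and receptors, 44 had a named probe set. In day 28 relative to day 0 MSCs 5 of these were higher and 15 lower, 45.5% of them, against 34.5% of all named genes, 13.5% higher and 21.0% lower, with a median difference of -0.18 against -0.11. Chondrocytes relative to day 28 MSCs had 7 higher and 3 lower, against 13.2% of all named genes, 8.35% higher and 4.81% lower, and chondrocytes relative to day 0 MSCs had 10 higher and 12 lower, against 36.0%, 15.1% higher and 20.9% lower. Each gene was taken by its probe set of highest mean. These counts are descriptions beside their background.

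Among 9 other genes listed under fibrillins, fibulins and microfibril proteins, 0 were called between chondrocytes and day 28 MSCs, against 13.2% of all named genes. Between chondrocytes and day 0 MSCs 2 were called, against 36.0%. Between day 28 and day 0 MSCs 1 was called, against 34.5%. This was MFAP4, a glycoprotein of elastic fibres, which rose by 2.67 ± 0.37 in day 28 MSCs (adjusted p = 0.000734) and was higher by 1.98 ± 0.37 in chondrocytes than in day 0 MSCs (adjusted p = 0.00373). MFAP4 had low signal in day 0 MSCs, at 2.67, 2.58 and 2.96, near the 25th percentile of each array, which limits the size of both differences. EFEMP2, the fibulin needed for elastin cross-linking in mice, was at 0.24 ± 0.17 in day 28 relative to day 0 MSCs and did not pass. In chondrocytes it was higher than in day 0 MSCs by 0.53 ± 0.17 (adjusted p = 0.0386), a call that ended when chondrocyte replicate 1 or 2, day 28 MSC replicate 2 or day 0 MSC replicate 1 or 2 was left out or arrays were centred on their median (0.42, adjusted p = 0.103). EMILIN1, an elastin microfibril interface protein, was at -0.13 ± 0.33 in day 28 relative to day 0 MSCs and at 0.92 ± 0.33 in chondrocytes relative to day 28 MSCs (adjusted p = 0.112). It passed in chondrocytes with the donor as a block, relative to day 28 MSCs (adjusted p = 0.0354) and to day 0 MSCs (0.79, adjusted p = 0.0290). Of the 9 genes, MMRN1, TNXB and VTN had low signal, at 1.38, 2.93 and 2.98 in day 28 MSCs. The lack of a call says little about them. FBN2 had no named probe set.

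The lysyl oxidase family did not move as one. LOXL1, a relative of LOX that acts on elastin, fell by 2.85 in day 28 relative to day 0 MSCs (SE 0.36, adjusted p = 0.000428), while LOX rose. It was higher by 1.99 ± 0.36 in chondrocytes than in day 28 MSCs (adjusted p = 0.00859), and at -0.86 ± 0.36 relative to day 0 MSCs it did not pass. LOXL1 read 8.04, 8.53 and 7.07 in chondrocytes and 6.03, 5.99 and 5.64 in day 28 MSCs, against 8.29, 9.23 and 8.69 in day 0 MSCs, so that day 28 MSCs lay below all other arrays, as for FBLN1 and FBLN5. The value against day 0 MSCs passed with the donor as a block (adjusted p = 0.0458) and without chondrocyte replicate 2 (-1.18, adjusted p = 0.0390), but was at -0.45 without chondrocyte replicate 3 (adjusted p = 0.307). POSTN, periostin, which binds the activator of lysyl oxidase in mice, rose by 2.75 ± 0.55 in day 28 relative to day 0 MSCs (adjusted p = 0.00490) and was higher by 2.60 ± 0.55 in chondrocytes than in day 28 MSCs (adjusted p = 0.0178). POSTN had low signal in day 0 MSCs, under the 25th percentile of each array, which limits the size of its rise there. The second POSTN call ended without chondrocyte replicate 2 (2.38, adjusted p = 0.0739) or 3 (2.38, adjusted p = 0.0595), and without day 28 MSC replicate 1 the rise in MSCs was 3.44 and the difference between chondrocytes and day 28 MSCs 1.92. PCOLCE2, an enhancer of procollagen processing, was lower in chondrocytes than in day 28 MSCs by 2.15 (SE 0.45, adjusted p = 0.0158), a call that ended without chondrocyte replicate 1 or 3. Against day 0 MSCs it was at -1.50 ± 0.45 (adjusted p = 0.0303), and that call ended without chondrocyte replicate 1 or 3 or day 0 MSC replicate 2 or 3.

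Of 8 proteases that degrade elastin, 6 fell in day 28 relative to day 0 MSCs, where 34.5% of all named genes were called and 21.0% called lower. The gelatinase MMP9 read 1.65, 2.52 and 2.09 in day 28 MSCs, against 6.33, 7.60 and 3.89 in day 0 MSCs, a fall of 3.85 (SE 0.76, adjusted p = 0.00448) that came to 3.02 without day 0 MSC replicate 2 and to 4.88 without day 0 MSC replicate 3. MMP9 had low signal in day 28 MSCs, under or near the 25th percentile of each array, so that the size of the fall is limited by that level. The elastin-degrading cathepsin CTSK, named after its values were seen, fell by 1.50 (SE 0.18, adjusted p = 0.000290). In chondrocytes relative to day 28 MSCs, CTSS was lower by 1.12 (SE 0.16, adjusted p = 0.00259) and CTSL higher, at 3.62 against 1.48 (2.15 ± 0.18, adjusted p = 0.000165). The CTSL set had low signal, and the paralog CTSV went the other way in that comparison, so that which of these related genes the probes report is uncertain.

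The remaining groups held a few strong differences. VCAN, versican, a proteoglycan that binds fibrillin and fibulins, fell by 4.16 in day 28 relative to day 0 MSCs (SE 0.25, adjusted p = 9.71e-06) and was higher by 2.54 ± 0.25 in chondrocytes than in day 28 MSCs (adjusted p = 0.000370), with 2 further probe sets in the same directions. BGN, the small proteoglycan biglycan, rose by 1.95 ± 0.12 in day 28 MSCs and was at 0.01 in chondrocytes relative to day 28 MSCs. ADAMTS6, of the family that acts on microfibrils, rose by 3.28 ± 0.31 in day 28 relative to day 0 MSCs (adjusted p = 8.87e-05) and did not pass between the day 28 groups. GLB1, whose splice variant serves as an elastin receptor, was lower in chondrocytes than in day 0 MSCs by 1.75 (SE 0.26, adjusted p = 0.00106). The integrin subunit ITGB3 fell by 1.87 in day 28 relative to day 0 MSCs (SE 0.23, adjusted p = 0.000335), and by 0.79 as the mean of its probe sets. ITGA5 was higher in chondrocytes than in day 28 MSCs by 1.67 ± 0.23 (adjusted p = 0.00230), but its other sets had low signal and the mean of the sets did not pass (0.49, adjusted p = 0.122).

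In the latent TGF-beta complex, TGFB3 was at -0.90 ± 0.29 in day 28 relative to day 0 MSCs (adjusted p = 0.0428) and higher by 1.39 ± 0.29 in chondrocytes than in day 28 MSCs (adjusted p = 0.0168). The first call ended in 11 of 22 alternatives, with any of chondrocyte replicates 1 and 2, day 28 MSC replicates 1 and 3 and day 0 MSC replicates 1 and 2 left out, and the second ended without chondrocyte replicate 1 or 2 or day 28 MSC replicate 1. LTBP1, which anchors latent TGF-beta in the matrix, was at -0.10 ± 0.17 in day 28 relative to day 0 MSCs and did not pass. It was at 0.63 ± 0.17 in chondrocytes relative to day 28 MSCs (adjusted p = 0.0479) and at 0.54 ± 0.17 relative to day 0 MSCs (adjusted p = 0.0411), and each of these calls ended in 12 of 21 alternatives, among them the loss of 8 and 7 single arrays of the 9.

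**Figure D3:**
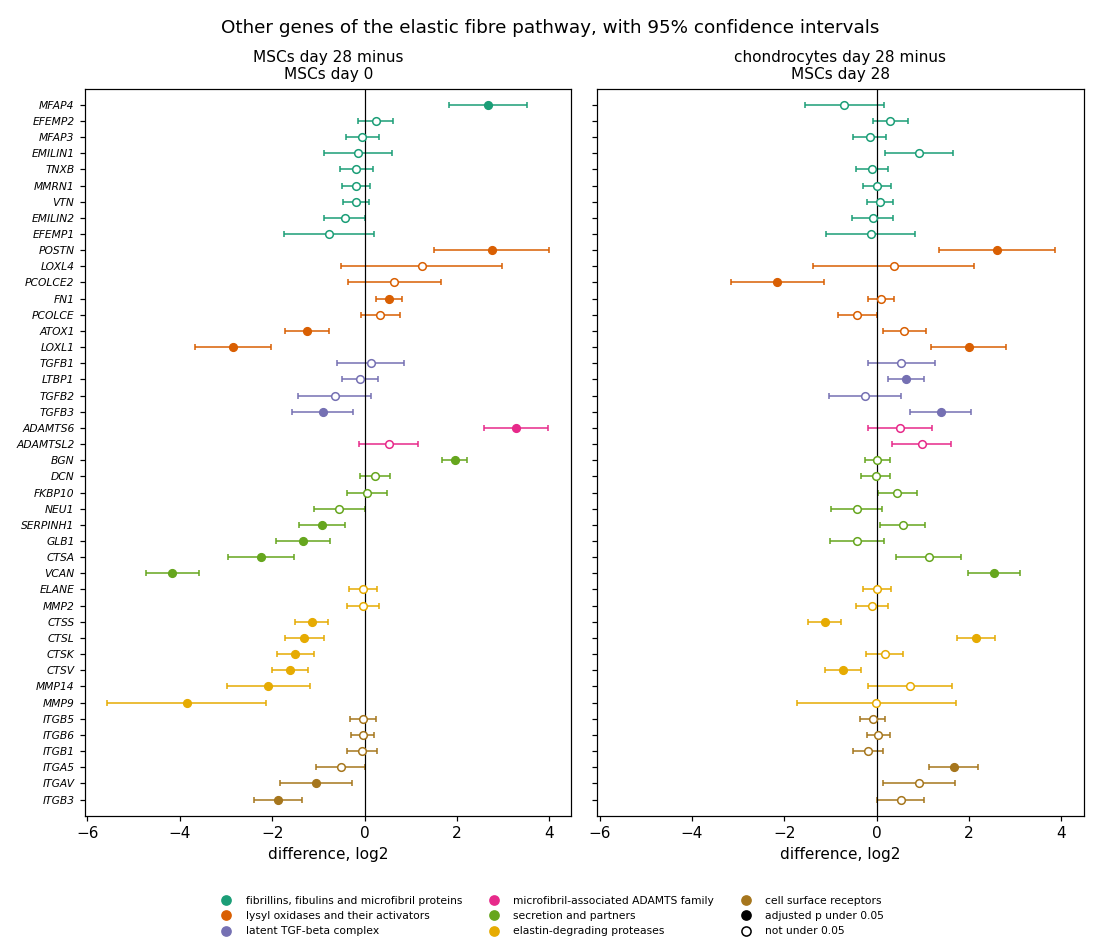
Differences, log2, with 95% confidence intervals from limma for 44 further genes of elastic fibres and microfibrils in day 28 minus day 0 MSCs and in chondrocytes minus day 28 MSCs; colours give the gene group, and filled points were called. MFAP4 is the filled point in the top group, in day 28 minus day 0 MSCs, while LOXL1 and VCAN are lower in day 28 than in day 0 MSCs and higher in chondrocytes than in day 28 MSCs.

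Markers of other cell types were measured beside these values. Their counts stand beside 34.5% of all named genes called between day 28 and day 0 MSCs, 13.5% higher and 21.0% lower, and 13.2% called between chondrocytes and day 28 MSCs. Of 8 smooth muscle markers, a cell type rich in elastic fibre genes, 6 fell in day 28 relative to day 0 MSCs, and their mean ran from 5.41 to 5.51 in day 28 MSCs, against 7.40 to 8.12 in day 0 MSCs. In chondrocytes it ran from 6.22 to 7.0, with 3 markers higher and 1 lower than in day 28 MSCs. That order of the groups is the one of FBLN1 and FBN1, and its part in those differences was not tested. The smooth muscle myosin gene MYH11 had low signal, at 2.22 in day 28 MSCs, against 2.92 in day 0 MSCs, and did not pass. Of 8 blood cell markers, 4 fell and 1 rose in day 28 relative to day 0 MSCs, with means from 3.12 to 3.19, against 2.97 to 4.46. Their part in the results, the fall of MMP9 included, was not tested. Of 8 endothelial markers 1, TEK, was called in that comparison, higher by 2.22 ± 0.29 in day 28 MSCs (adjusted p = 0.000496). PECAM1, CDH5 and VWF had low signal, at 2.48, 2.51 and 2.56 in day 28 MSCs and at 2.66, 2.49 and 2.55 in day 0 MSCs. Between chondrocytes and day 28 MSCs 1 of the 8, TIE1, was called, higher by 0.93 ± 0.23 in chondrocytes (adjusted p = 0.0309). The mean of 9 marrow stromal markers ran from 5.14 to 5.31 in chondrocytes and from 5.08 to 5.60 in day 28 MSCs, against 6.22 to 7.09 in day 0 MSCs. NT5E, CD44 and CXCL12 were lower in day 28 MSCs than in day 0 MSCs, and CD44, CXCL12 and ALCAM were lower in chondrocytes than in day 0 MSCs. Of 4 adipocyte markers, 2 rose and 1 fell in day 28 relative to day 0 MSCs. Of 3 tendon markers, 2 were higher in day 28 than in day 0 MSCs. In chondrocytes 2 were higher than in day 0 MSCs, where 36.0% of all named genes were called. Between the day 28 groups 1 was called. The tendon gene THBS4 was higher in chondrocytes than in day 28 MSCs by 5.02 ± 0.32, while TNMD, another tendon marker, was at -0.08 and had low signal. That gap between the 3′ and 5′ ends, given above, moved with all differences from day 0 MSCs, and its part in them was not tested either.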

How the data were processed

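The deposited values are log2 intensities of 9 single-colour arrays, 1 per sample, and the submitters' processing notes name RMA as their method (version not given in the sources used here). RMA corrects the background, quantile-normalizes arrays and summarises each probe set, so that a change of total RNA per cell cannot be seen. Per the labels' protocols, cDNA was primed with poly(T) and linearly amplified, which favours 3′ ends. Of 24128 probe sets, 112 controls were left out. The platform annotation gave 13292 sets 1 symbol, 86 several and 10638 none, and a RefSeq table brought symbols up to date by gene identifier (9155 genes). No array was identical to another.

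All groups entered 1 model, lmFit and eBayes of limma 3.58.1 under R 4.3.3, without the donor, and the procedure was tested on simulated data. Same-numbered arrays come from 1 calf. After group means were removed, their correlation was 0.108 to 0.412, against -0.303 to 0.152 between donors. The value of 0.412 belongs to the 2 arrays with low hybridisation controls, so that donor and array quality cannot be told apart there. The next highest was 0.365. The donor block is an alternative and is given where it changes a call. Alternatives were 3 scalings, 2 filters on low signal, the donor block, other variance models, array weights, low hybridisation controls, probe set means, symbols without update and each array left out.

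The members, gene lists and rules were chosen with earlier results of these data known. Each member probe set is named. Of the further genes, the called gene with the largest rise and fall per group and comparison and 5 fixed genes are named, and per member the 3 genes of highest r. CTSK, the microfibril genes named for their low signal and the cell type markers given singly were picked after their values were seen.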

Additional observations from a re-analysis of the deposited data

How the results depend on the processing

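Of 15 called member differences, 14 kept their direction and call in all alternatives run, the exception being FBLN1 set 1 in chondrocytes relative to day 0 MSCs. Of 18 that were not called, 13 stayed so throughout. Members called lower in chondrocytes relative to day 0 MSCs numbered 2, and 1 with arrays centred on ribosomal protein genes, with cyclic loess, without the 2 arrays with low hybridisation controls, with the level of those controls as a block or with the mean of a gene's sets, where 8 genes were counted. Leaving out single arrays gave 1 to 3 there, 4 to 5 for members lower in day 28 than in day 0 MSCs, and 3 to 4 for members higher in chondrocytes than in day 0 MSCs. With the donor as a replicate block, 3 members were higher and 5 lower in day 28 than in day 0 MSCs, the addition being MFAP5. The block changed no other member call. The differences that changed sign were uncalled and small. With arrays centred on ribosomal protein genes, LTBP2 set 2 was at 0.00117 and set 1 at 0.0605 in chondrocytes relative to day 28 MSCs. Leaving out single arrays gave -0.282 to 0.0826 for set 2 and -0.192 to 0.0521 for set 1 there, above 0 without day 28 MSC replicate 1. EMILIN1 in day 28 relative to day 0 MSCs was at 0.000438 with array weights, 0.0153 without the arrays with low controls and 0.0714 with their block, and at -0.393 to 0.110 without single arrays, above 0 without day 28 MSC replicate 3 or day 0 MSC replicate 2. LTBP1 there was at -0.262 to 0.00431 without single arrays, above 0 without day 0 MSC replicate 2. Centring on ribosomal protein genes shifted the overall median difference by 0.13 in chondrocytes relative to day 28 MSCs and by 0.14 relative to day 0 MSCs, and centring on the median by -0.12 in the last. Calls in chondrocytes relative to day 28 MSCs were then 1957 higher and 656 lower with ribosomal centring and 1344 and 1359 with the array median, against 1506 and 976. Relative to day 0 MSCs, 61.3% and 37.2% of the calls in chondrocytes were higher under these, against 48.7%. MFAP5 lay under the stricter filter on low signal and gave no value there. The causes were not tested. Low signal limits MFAP5, and 3 arrays per group limit all differences.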
